A study of Mus musculus with 26 samples.

Results

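The comparison described here set the striatum of YAC128 mice at 18 months against that of YAC128 mice at 6 months, the widest age span sampled in this model, on the 9 arrays of that genotype and those ages out of 26 arrays in the series. All arrays whose labels name the YAC 128 genotype and the age number 6 (4 arrays, 1 female and 3 male) or 18 (5 arrays, 2 female and 3 male) were taken, and none was left out. YAC128 mice carry a yeast artificial chromosome with the whole human huntingtin gene and an expanded CAG repeat, under that gene's own regulatory sequence and beside both mouse Htt copies, and model Huntington's disease. The animals were hemizygous and on a C57BL6/J background, and the study names no treatment. They came from a cohort whose behavioural data were published separately, and which of these animals were tested is not given here. Striata were micro-dissected after culling at one point of the light phase. The labels count the ages in weeks where the study gives months, and months are used throughout. Wild Type (WT) striatum of the same background at 6 months (4 arrays) and 18 months (3 arrays), and YAC128 striatum at 12 months (5 arrays), were used only for comparison. The study says, of YAC128 and a further Huntington's model, that samples of equal age shared a chip, and the labels name no batch. If arrays were run by age, the run and the age cannot be told apart in the values below.

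The striatum is built mostly of medium spiny neurons, GABA-releasing cells of a direct pathway that carry the dopamine receptor Drd1 and an indirect pathway that carry Drd2, and these are the cells most affected in Huntington's disease. They sit among oligodendrocytes that wrap the passing fibre bundles in myelin, astrocytes, microglia and few interneurons. In ageing brain, astrocytes and microglia are known to take on reactive states with raised Gfap and complement, and neurons switch on immediate early genes such as Fos and Egr1 when they are active. In whole tissue, fewer cells of a type and less RNA per cell cannot be told apart.

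Values are the deposited log2 expression levels, and a log2 fold change is the mean at 18 months minus the mean at 6 months. By limma, 2523 of 34760 probesets (7.26%) differed at an unadjusted p under 0.05, where 1738 would pass by chance alone if none differed. Of these, 1514 probesets (4.36% of those tested) were higher at 18 months and 1009 (2.9%) were lower, and they named 1472 distinct genes. No probeset passed a Benjamini-Hochberg adjusted p of 0.05, and the lowest adjusted p was 0.115. Below, "called" therefore means an unadjusted limma p under 0.05, and each adjusted p printed is limma's over all probesets. When each array was centred on its median the split was 1874 higher and 680 lower, and with sex as a covariate it was 1669 higher and 1477 lower. The groups did not overlap, with every 18 month array above every 6 month array, at 625 probesets (1.8%), and the reverse held at 363 (1.04%).

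The arrays were alike in scale, with medians of 7.45 to 7.52, but not in the level of tissue markers. Medium spiny neuron markers were clearly present on all 9, with Ppp1r1b between 10.86 and 12.00 and Penk between 12.13 and 13.19. The male M2 arrays of both ages stood apart: their mean over 36 medium spiny neuron genes was 10.34 at 6 months and 10.04 at 18 months, against 10.60 to 10.89 on the other 7 arrays. Over 21 cortical projection neuron genes the same pair gave 9.52 and 9.17, against 8.29 to 8.90 elsewhere. The 3 male arrays of 18 months were the highest of the 9 over 24 genes of thalamus, septum and hypothalamus, at 8.17, 8.36 and 7.95 against 7.64 to 7.88. Choroid plexus genes were high on 3 arrays, M1 of 6 months and F1 and M2 of 18 months. With the thalamic list mean as a covariate, 19 of the 106 called genes followed one by one were no longer called, and without both M2 arrays 8 were not, both chosen after seeing the data. The largest of these shifts are given beside the results. Xist was above 12.1 on the female arrays and under 7.82 on the male ones across all 26, as labelled.

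**Figure D1:**
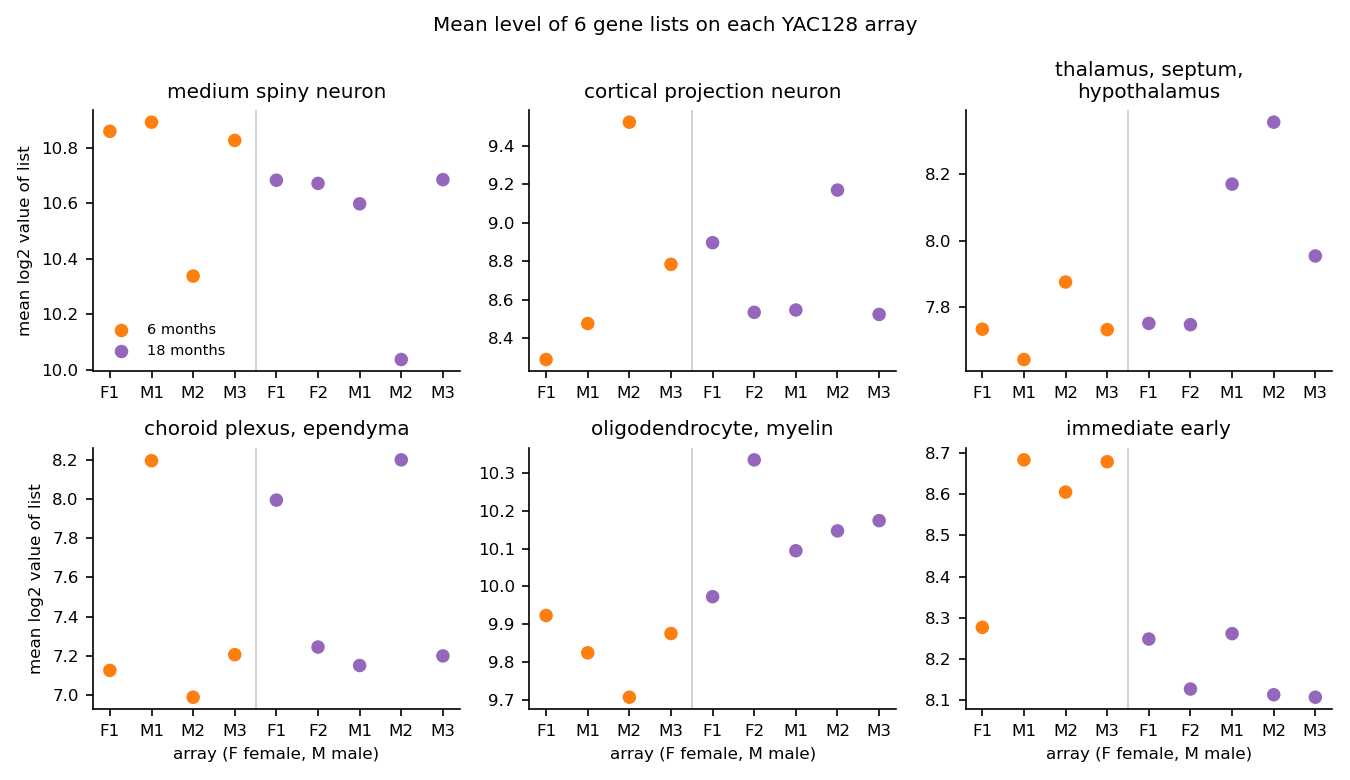
Mean log2 value of 6 gene lists (y axis) on each of the 9 YAC128 arrays (x axis, F female, M male), with 6 months in orange and 18 months in purple. The myelin list was higher on all 5 arrays of 18 months (9.97 to 10.33) than on the 4 of 6 months (9.71 to 9.92), while the M2 arrays of both ages were lowest for the medium spiny neuron list and highest for the cortical list.

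Mouse Htt, the counterpart of the human gene that the model carries, was level across the span. The mouse Htt probeset read 9.85, 9.78, 9.87 and 9.79 at 6 months and 9.87, 9.82, 9.79, 9.91 and 9.80 at 18 months. The difference was 0.01 (two-sided exact permutation p = 0.667 over 126 arrangements, of which the smallest possible p is 0.0159), and whether this probeset also reads the human transgene is not given in the sources used here. Bdnf, a growth factor supplied to the striatum by cortex, had a log2 fold change of -0.06 (SE 0.10).

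Astrocyte genes were higher in part. Gfap, the intermediate filament of astrocytes, read 8.38, 8.43, 8.60 and 8.55 on the 6 month arrays and 9.18, 10.06, 9.23, 9.65 and 9.71 on those of 18 months. No array of 18 months came near the highest of 6 months, and the difference was 1.08 (SE 0.16, 2.11-fold, adjusted p = 0.205). Serpina3n, a secreted protease inhibitor of reactive astrocytes, was higher by 0.63 (SE 0.14). The other reactive astrocyte genes called were Vim (0.38), another intermediate filament, Lcn2 (0.32), Osmr (0.26) and Srgn (0.30), which made 6 of 22 higher and 0 lower with a list median of 0.09, against -0.01 over all probesets. General astrocyte genes followed in part: 5 of 23 were higher and 0 lower, among them S100b (0.52), a calcium-binding protein, and the water channel Aqp4 (0.39). With the thalamic list mean as a covariate Aqp4 (0.27) and Srgn (0.29) were not called, and 3 of the 23 were higher, as they were without M1 of 6 months. The Gfap shift lay after 12 months, as the YAC128 mean was 8.49 at 6 months, 8.44 at 12 and 9.57 at 18.

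Complement and microglial genes were the next set. C4b, the classical pathway component cleaved by C1s, read 8.60, 8.50, 8.55 and 8.57 at 6 months and 9.37, 9.63, 9.27, 9.04 and 9.59 at 18 months. The 6 month arrays lay close together, the groups did not overlap, and the difference was 0.82 (SE 0.11, 1.76-fold, adjusted p = 0.174). C1qb (0.43), C1qa (0.32) and C1qc (0.32), the 3 chains of the recognition molecule C1q, the anaphylatoxin receptor C3ar1 (0.34), C4a (0.24) and C1ra (0.24) were also higher, so that 7 of 18 complement genes were called higher and 0 lower, with a median of 0.21. C4a and C4b are near-identical copies, and their probesets may share signal.

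Ccl3, a chemokine of activated microglia, read 7.0, 6.73, 6.47 and 6.76 at 6 months and 7.61, 8.0, 7.37, 7.51 and 7.87 at 18 months. Again the groups did not overlap, and the difference was 0.93 (SE 0.14, 1.9-fold, adjusted p = 0.205). Of 30 genes of activated microglia and lysosomes, 14 were higher and 0 lower, with a median of 0.19. They included Lyz2 (0.69), lysozyme, Clec7a (0.44), a fungal glucan receptor, Cst7 (0.36) and the lysosomal protease Ctsd (0.35). Genes of resting microglia stood lower in this order: P2ry12, a purine receptor, differed by 0.01 (SE 0.08, adjusted p = 0.986) and Cx3cr1, the fractalkine receptor, by 0.12 (SE 0.09, adjusted p = 0.803), and 2 of 18 in that list were called higher. Cx3cl1, which encodes fractalkine on neurons, had a log2 fold change of -0.27 (SE 0.06), with all 18 month arrays (10.63 to 10.84) under all 6 month ones (10.95 to 11.06).

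Genes induced by interferon were higher by smaller steps. Ifit3, an antiviral protein, read 8.10, 7.73, 8.06 and 7.58 at 6 months and 8.38, 8.35, 8.37, 8.40 and 8.48 at 18 months. The older arrays were close together and the younger ones spread, yet all lay under them, and the difference was 0.53 (SE 0.11, adjusted p = 0.306). Ifit1 (0.45), Xaf1 (0.29), Trim30a (0.28) and Oasl2 (0.28) were among the 10 of 32 members called higher, with 0 lower and a median of 0.10. B2m, the light chain of MHC class I, was higher by 0.36 (SE 0.07), with no overlap between groups, but it was the 1 called of 15 antigen presentation genes.

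**Figure D2:**
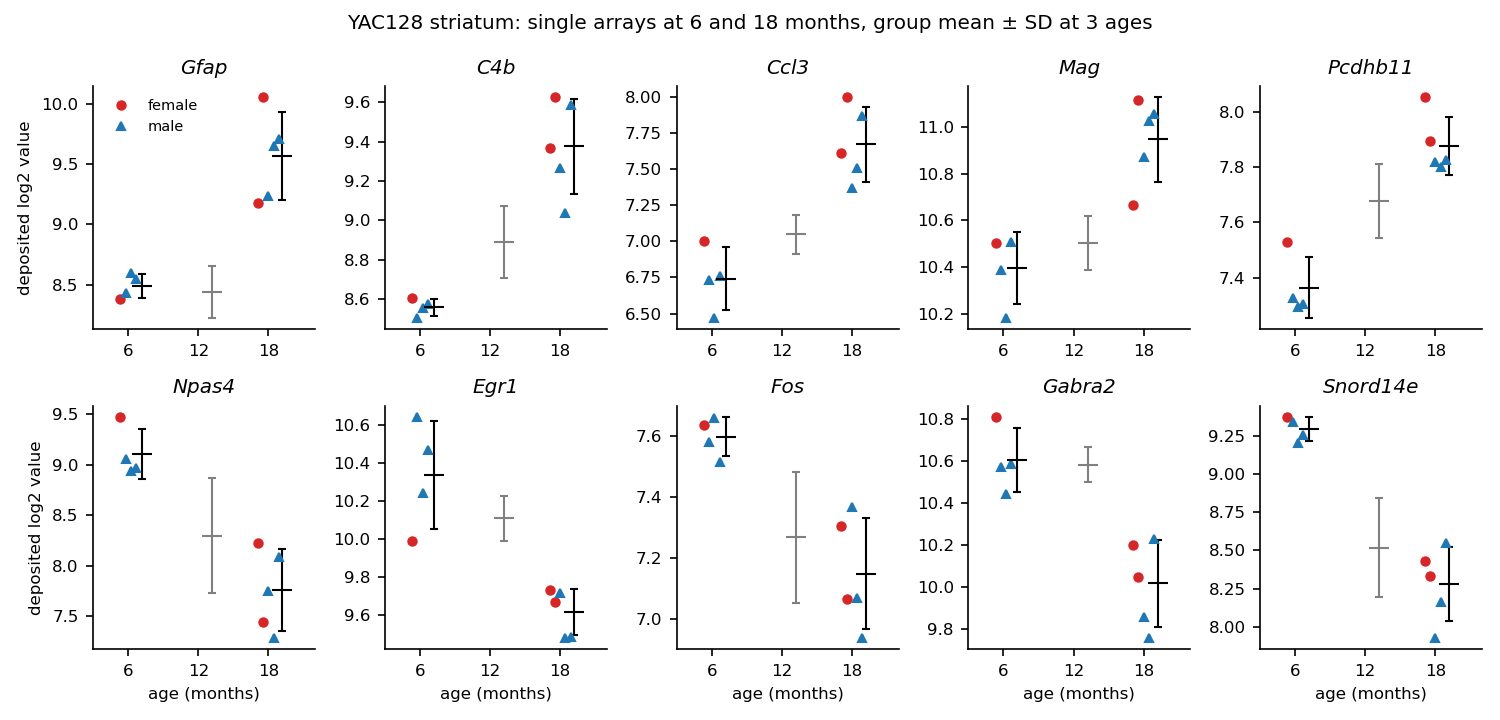
Deposited log2 values (y axis) of 10 genes against age in months (x axis), with single YAC128 arrays at 6 and 18 months (red circles female, blue triangles male) and the group mean ± SD at 6 (n = 4), 12 (n = 5) and 18 months (n = 5) as bars. In all 10 panels the arrays of 6 and 18 months do not overlap. The 12 month mean lay near that of 6 months for Gfap and Gabra2 and near that of 18 months for Fos and Snord14e.

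Myelin was the list with the highest share of called genes among those examined. In the list of 35 genes from myelin and mature oligodendrocytes, 30 were called higher and 0 lower, all 35 had a log2 fold change above 0, and the median was 0.31, while 45.3% of all probesets were above 0. Mag, a myelin adhesion protein that faces the axon, read 10.50, 10.39, 10.18 and 10.51 at 6 months and 10.67, 11.12, 10.87, 11.02 and 11.06 at 18 months. The lowest array of 18 months, F1, was still above the highest of 6 months, and the difference was 0.55 (SE 0.11, 1.47-fold, adjusted p = 0.28). Mog (0.40), a protein of the outer myelin surface, Anln (0.49), Hapln2 (0.42), a link protein of the node of Ranvier, Il33 (0.41) and Mbp (0.23), the basic protein that compacts the sheath, showed no overlap either. In the whole list 18 of 35 genes were higher without overlap, against 1.8% of all probesets, and the rest overlapped.

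Several of the lowest p-values outside that list were also from genes known in oligodendrocytes. Abca8a, a lipid transporter with the lowest p of all higher genes, read 8.12, 8.0, 7.99 and 8.02 at 6 months and 8.59, 8.76, 8.49, 8.59 and 8.58 at 18 months. Both groups were tight, and the difference was 0.57 (SE 0.07, adjusted p = 0.115). Lgi3 (0.48), a secreted ligand of ADAM-family proteins, S1pr5 (0.45), a sphingosine-1-phosphate receptor of mature oligodendrocytes, Pmp22 (0.39) and Tmem144 (0.34) were alike in having no overlap.

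Earlier stages of the lineage were not called in the same number. Of 15 precursor genes 2 were higher, Olig1 (0.30), a transcription factor of the whole lineage, and Bcas1 (0.39), while the precursor receptor Pdgfra differed by 0.10 (SE 0.06) and Gpr17, of the stage before maturation, by -0.20 (SE 0.09), neither of them called. The myelin difference also lay late: its median was 0.02 from 6 to 12 months and 0.27 from 12 to 18. Counts in this list were 22 of 35 without both M2 arrays and 26 of 35 with the thalamic list mean as a covariate, both chosen after seeing the data, and 0 were lower in each.

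**Figure D3:**
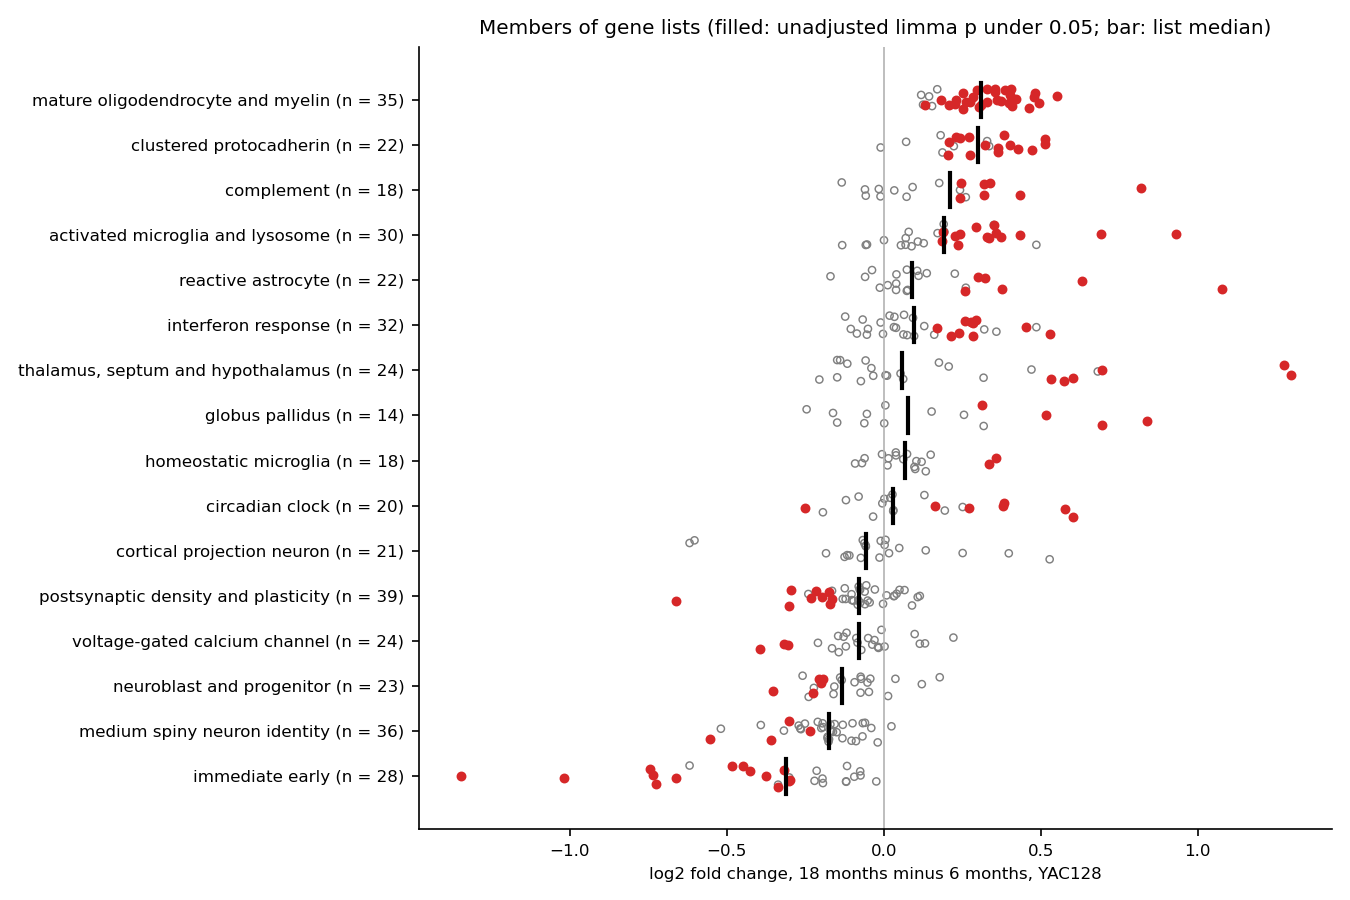
Log2 fold change of YAC128 striatum, 18 months minus 6 months (x axis), of each member of 16 gene lists (y axis), with filled points at an unadjusted limma p under 0.05 and a bar at the list median. All 35 myelin members lie to the right of 0 and all 28 immediate early members to the left, and in no other list shown do members lie on 1 side alone.

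Immediate early genes were the main set that was lower. All 28 had a log2 fold change below 0, 14 were called lower and 0 higher, and the median was -0.31. Since many are controlled by a cyclic AMP response element, whose full letters are TGACGTCA and whose core is TGACG, or by the serum response element with its CArG box, the 250 bases before the start of transcription were searched on both strands in RefSeq promoters (GRCm38.p6). TGACG, which TGACGTCA contains, was found before 16 of the 22 immediate early genes with a promoter in the table (72.7%), against 19.8% of all 27025 genes. The full TGACGTCA was found before Btg2 and Dusp1 (9.09% against 1.77% of all genes), and a CArG box before Egr2 alone (4.55% against 1.62%). These are matches of letters and not measured binding. The stretch from the first match to the start is shown for 5 of the called genes, as they hold these elements in different arrangement, with TGACG in either direction, TGACGTCA and the CArG box in capitals.
Fos, chr12:85473746-85473889, + strand: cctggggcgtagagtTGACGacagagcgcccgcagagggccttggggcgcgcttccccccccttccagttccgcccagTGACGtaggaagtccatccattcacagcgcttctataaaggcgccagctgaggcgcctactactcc
Npas4, chr19:4989972-4990165, - strand: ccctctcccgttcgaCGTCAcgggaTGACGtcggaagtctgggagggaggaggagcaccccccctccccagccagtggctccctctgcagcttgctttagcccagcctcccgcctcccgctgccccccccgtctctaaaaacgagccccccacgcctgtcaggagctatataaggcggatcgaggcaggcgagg
Dusp1, chr17:26508473-26508678, - strand: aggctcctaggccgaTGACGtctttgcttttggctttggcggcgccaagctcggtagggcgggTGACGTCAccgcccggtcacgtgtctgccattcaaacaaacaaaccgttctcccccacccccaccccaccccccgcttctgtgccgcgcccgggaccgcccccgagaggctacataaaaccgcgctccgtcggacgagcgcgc
Btg2, chr1:134079156-134079336, - strand: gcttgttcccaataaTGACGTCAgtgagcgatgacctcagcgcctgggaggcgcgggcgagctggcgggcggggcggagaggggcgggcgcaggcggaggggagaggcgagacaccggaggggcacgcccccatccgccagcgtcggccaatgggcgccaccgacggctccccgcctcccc
Egr2, chr10:67537743-67537868, + strand: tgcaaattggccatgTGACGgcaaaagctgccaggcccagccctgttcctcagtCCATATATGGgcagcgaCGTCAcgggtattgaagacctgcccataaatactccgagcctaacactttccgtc

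Npas4, a neuron-specific transcription factor switched on by calcium entry, gave the largest of these differences. Its promoter above holds TGACG in both directions, 179 and 169 bases before the start. It read 9.47, 9.05, 8.93 and 8.97 at 6 months and 8.23, 7.45, 7.75, 7.28 and 8.09 at 18 months. Even the highest array of 18 months lay well under the lowest of 6 months, and the difference was -1.35 (SE 0.20, 2.55-fold lower, adjusted p = 0.198). Egr1, a zinc finger factor of the same response, read 9.99, 10.65, 10.24 and 10.47 at 6 months and 9.73, 9.67, 9.71, 9.48 and 9.48 at 18 months, again with no overlap. Its difference was -0.72 (SE 0.13, adjusted p = 0.251).

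Fos, a subunit of the factor AP-1, has TGACG 129 and 66 bases before its start. It read 7.64, 7.58, 7.66 and 7.51 at 6 months and 7.31, 7.07, 7.37, 7.07 and 6.94 at 18 months. Every older array was lower, with a mean difference of -0.45 (SE 0.09, adjusted p = 0.33). Dusp1, a phosphatase that switches off MAP kinases and holds the full TGACGTCA 143 bases before its start, read 9.67, 9.71, 9.73 and 9.77 at 6 months and 9.31, 9.01, 9.38, 9.22 and 9.26 at 18 months. The younger arrays were nearly equal, and the difference was -0.48 (SE 0.08). Egr2, with the CArG box, differed by -0.75 (SE 0.19) and Btg2, an antiproliferative gene, by -0.38 (SE 0.13), both without overlap. Nr4a1, an orphan nuclear receptor, differed by -1.02 (SE 0.26), and Arc, which acts in the removal of AMPA receptors, by -0.66 (SE 0.17), but the F1 array of 6 months, at 9.35 and 9.16, lay within the range of the older group in both.

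That F1 array was the lowest of its group over the whole list, at 8.28 against 8.61 to 8.68 on the other 3 arrays of 6 months, while the 18 month arrays spanned 8.11 to 8.26. Without it 20 of 28 genes were lower. With the thalamic list mean as a covariate 10 were lower, and without both M2 arrays 13. The difference began early, as 23 of 28 genes had a lower mean at 12 than at 6 months: Npas4 went from 9.11 to 8.30 to 7.76, Fos from 7.60 to 7.27 to 7.15 and Dusp1 from 9.72 to 9.23 to 9.24. Outside the list, Dusp14, a further phosphatase, had a log2 fold change of -0.49 (SE 0.11), with all 18 month arrays (9.63 to 9.80) under those of 6 months (9.91 to 10.54).

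Most genes in the lists of synapses and excitability were not called, and the called ones were not all in 1 direction. Called lower were 23.1% of postsynaptic, 15.4% of GABA-A receptor, 12.5% of calcium channel and 12.5% of ionotropic glutamate receptor genes. The share over all probesets was 2.9%, and 0 genes of these lists were called higher. Gabra2, the alpha-2 subunit of the GABA-A receptor, read 10.81, 10.57, 10.44 and 10.59 at 6 months and 10.20, 10.05, 9.86, 9.76 and 10.23 at 18 months. The groups did not overlap, and the difference was -0.59 (SE 0.11, 1.5-fold lower, adjusted p = 0.302). Another subunit, Gabrg3, differed by -0.29 (SE 0.12), and these were the 2 called of 13 in the family. Among 24 voltage-gated calcium channel genes 3 were lower and 0 higher: Cacng3 (-0.40), which also escorts AMPA receptors, Cacnb1 (-0.32) and the R-type pore subunit Cacna1e (-0.30). Of 39 genes of the postsynaptic density and plasticity 9 were lower and 0 higher, with a median of -0.08. They included Homer1 (-0.30), a scaffold whose short form is itself an immediate early product, Dlgap2 (-0.30) and Dlg4 (-0.22), which encodes PSD-95. Homer1 is counted in the immediate early list too, so these lists are not separate. Grin2b (-0.14) and Grid1 (-0.21) were the 2 called of 16 ionotropic glutamate receptor genes. Other lists were mixed: synaptic vesicle and release genes had 3 higher and 2 lower of 36, potassium channels 2 and 3 of 42, sodium channels 1 and 1 of 11, and dopamine, opioid and cannabinoid genes 3 and 2 of 24. With the thalamic list mean as a covariate, 2 of the 39 postsynaptic genes were called lower, and Cacnb1 (-0.14), Cacna1e (-0.13), Gabrg3 (-0.11), Grid1 (-0.11), Grin2b (-0.15), Dlgap2 (-0.17) and Dlg4 (-0.17) were not called. Gabra2 (-0.42), Cacng3 (-0.26) and Homer1 (-0.22) still were.

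Medium spiny neuron genes leaned lower without most of them being called. Of 36 genes, 35 were below 0 with a median of -0.18, but 4 were called: Ryr1 (-0.55, SE 0.15), a calcium release channel, Cnr1 (-0.36, SE 0.16), the cannabinoid receptor, Arpp21 (-0.30, SE 0.12) and Arpp19 (-0.23, SE 0.09), both substrates of protein kinase A. Ryr1 read 8.46, 8.68, 8.09 and 8.50 at 6 months and 7.93, 8.04, 7.97, 7.44 and 8.02 at 18 months. These groups were close but apart. Drd2 read 11.62, 11.78, 10.80 and 11.68 at 6 months and 11.45, 11.45, 11.35, 10.46 and 11.44 at 18 months, where the M2 array was lowest at each age and made the groups overlap. Its difference was -0.24 (SE 0.25, adjusted p = 0.869). Drd1 (-0.29, SE 0.26), Penk (-0.25, SE 0.20), Pde10a (-0.32, SE 0.23), Tac1 (-0.08, SE 0.24) and Ppp1r1b (-0.07, SE 0.25) were not called either.

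How many of these genes were called depended on the arrays and on tissue markers. Without both M2 arrays, 19 of 36 were lower and 0 higher, with a median of -0.19. With the mean of the thalamus, septum and hypothalamus list as a covariate, the median turned to 0.10 and 2 were lower, Ryr1 (-0.33) and Arpp21 (-0.34), while Cnr1 (-0.15) and Arpp19 (-0.10) were not called. Over arrays left out in turn, the median ranged from -0.32 without M2 of 6 months, where 11 were called, to -0.04 without M2 of 18 months, where 2 were. Without M1 or M3 of 6 months 2 were called as well, and without M1 of 18 months 1. From 6 to 12 months the list median was 0.12 and from 12 to 18 months -0.30. Oprk1, the kappa opioid receptor, differed by -0.40 (SE 0.15) in YAC128 and by 0.13 (SE 0.10) in WT over the same span. The difference between genotypes was -0.53, which was called in a test that reuses the same YAC128 arrays. The YAC128 difference of Oprk1 was not called with the thalamic covariate (-0.31) or without both M2 arrays (-0.28).

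Some genes known from thalamus and pallidum were called higher, and those of thalamus moved with the male arrays of 18 months. Prkcd, a protein kinase of thalamic relay neurons, read 8.06, 8.01, 8.49 and 8.54 at 6 months, 8.53 and 8.36 on the 2 female arrays of 18 months and 10.04, 11.01 and 9.92 on the 3 male ones. The females of 18 months lay within the range of 6 months and the males far above it, and the difference was 1.30 (SE 0.48, adjusted p = 0.611). Slc17a6, the glutamate transporter of subcortical neurons, at 1.28 (SE 0.45), Rora at 0.60 (SE 0.21), Tcf7l2 at 0.57 (SE 0.25) and Zic1 at 0.53 (SE 0.22) were highest on the same 3 arrays. Of 24 genes in that list 6 were called higher and 0 lower, and 9 were below 0. The count was 2 without M1 of 6 months and 9 without F2 of 18 months. With the mean of the same list as a covariate, which these genes help to set, Prkcd was 0.34, Rora 0.20, Tcf7l2 0.08 and Zic1 0.11, none of them called, and Slc17a6 was 0.34. In the pallidum list 4 of 14 were higher and 0 lower, with 5 below 0. Pvalb, a calcium buffer of fast-spiking interneurons and pallidal cells, was higher on the female arrays of 18 months as well. It read 7.85, 8.21, 7.99 and 8.52 at 6 months and 8.77, 8.64, 8.87, 9.55 and 9.06 at 18 months. No overlap was seen, and the difference was 0.84 (SE 0.19, adjusted p = 0.344). Vamp1 (0.69, SE 0.19), a vesicle protein of fast-firing neurons, and Plekhg1 (0.84, SE 0.25) were highest on M2 of 18 months. With the thalamic covariate Pvalb was 0.60, Vamp1 0.37 and Plekhg1 0.33, all still called. How far dissection took part in these values was not tested. Slc17a7, of cortical neurons, ranged from 7.25 to 11.90 and differed by 0.40 (two-sided exact permutation p = 0.698), and Ttr, of choroid plexus, ranged from 9.63 to 13.64 and differed by 1.01 (p = 0.365).

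The clustered protocadherins, adhesion proteins that give neurons a surface identity, were higher as a family. Of 22 genes 15 were called higher and 0 lower, all 15 of the beta cluster, and the median was 0.30. Pcdhb11 read 7.53, 7.33, 7.29 and 7.30 at 6 months and 8.05, 7.89, 7.82, 7.80 and 7.83 at 18 months. The groups did not overlap, and the difference was 0.51 (SE 0.08, 1.43-fold, adjusted p = 0.205). Pcdhb2 (0.51), Pcdhb3 (0.47) and Pcdhb4 (0.38) were alike. Members of the beta cluster are close in sequence and their probesets may share signal, so they are not independent measurements. Most of the difference was present at 12 months, with a median of 0.26 from 6 to 12 months and 0.04 from 12 to 18, and 22 of 22 means higher at 12 months. In WT from 6 to 18 months, 11 of 22 were called higher and 0 lower, 21 were above 0 and the median was 0.25.

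Clock genes were called mostly higher. Ciart, a repressor of the core clock, read 8.91, 8.81, 8.75 and 8.88 at 6 months and 9.58, 9.38, 9.60, 9.10 and 9.41 at 18 months. Its groups did not overlap, the difference was 0.58 (SE 0.10, adjusted p = 0.251), and a further Ciart probeset gave 0.48 (SE 0.10). Bhlhe41 (0.38), Bhlhe40 (0.38) and Nr1d2 (0.27), which are repressors as well, were higher, and Arntl (-0.25, SE 0.06), the activator they oppose, was lower, each without overlap. Of 20 clock genes 6 were called higher and 1 lower, with a median of 0.03. Dbp (0.19) and Nr1d1 (0.13) were not called. In WT over the same span 8 of the 20 were called higher and 1 lower, with a median of 0.16. The E-box CACGTG, to which the clock activators bind, was found within 250 bases before 5 of 17 clock genes (29.4%) and before 5 of 22 immediate early genes (22.7%), Per1 being in both lists, against 6.86% of all genes. Ciart held 3 of them, which are in capitals.
Ciart, chr3:95882229-95882359, - strand: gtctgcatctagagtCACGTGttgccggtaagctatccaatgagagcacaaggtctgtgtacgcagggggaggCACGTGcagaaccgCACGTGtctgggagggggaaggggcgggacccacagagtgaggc

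Genes of neuroblasts and dividing progenitors were lower in part, with 5 of 23 called lower, 0 higher and a median of -0.13. They included the transcription factors Sp8 (-0.21) and Dlx1 (-0.35) and the proliferation marker Mki67 (-0.23). The count was 3 without F2 or M3 of 18 months or M1 or M3 of 6 months, and 2 with the thalamic covariate, where Mki67 (-0.20) was not called. Dlx1 (-0.26) was not called without both M2 arrays. St8sia2, which adds polysialic acid to the adhesion molecule of migrating neuroblasts, read 8.06, 8.02, 7.70 and 7.90 at 6 months and 7.32, 7.49, 7.65, 7.40 and 7.51 at 18 months. It was lower on all older arrays, with a log2 fold change of -0.44 (SE 0.09, adjusted p = 0.33). Both monoamine oxidases were higher, Maob by 0.29 (SE 0.07) and Maoa by 0.18 (SE 0.07).

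The lowest p of all belonged to Snord14e, a small nucleolar RNA of the kind that guides chemical modification of ribosomal RNA. It read 9.38, 9.34, 9.20 and 9.26 at 6 months and 8.43, 8.33, 7.92, 8.16 and 8.55 at 18 months. The gap between groups was wider than the range of either, and the difference was -1.02 (SE 0.12, 2.02-fold lower, adjusted p = 0.115). Most of it was present at 12 months, where the mean was 8.52. Hspa8, a constitutive chaperone in whose introns Snord14 RNAs are encoded, was named after its values were seen, and its probeset of highest mean differed by -0.07 (SE 0.06, adjusted p = 0.829).

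MicroRNA genes, chosen after their values were seen, included pairs from the same cluster that were higher together. Of 296 microRNA genes 20 (6.76%) were called higher and 5 (1.69%) lower, against 4.36% and 2.9% of all probesets, with a median of -0.01. A probeset on a microRNA gene does not separate the mature molecule from its precursor. The mature sequences (RefSeq, GRCm38.p6) of 7 of the genes called higher are shown because 3 pairs share a seed, bases 2 to 8, in capitals, by which a microRNA finds its targets.
miR-219a-5p (Mir219a-2, chr2:29845689-29845709, - strand): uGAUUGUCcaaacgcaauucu
miR-29a-3p (Mir29a, chr6:31062673-31062694, - strand): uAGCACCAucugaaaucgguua
miR-29b-3p (Mir29b-1, chr6:31063025-31063047, - strand): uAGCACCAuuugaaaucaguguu
miR-181a-5p (Mir181a-1, chr1:137966468-137966490, + strand): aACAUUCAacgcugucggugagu
miR-181b-5p (Mir181b-1, chr1:137966650-137966673, + strand): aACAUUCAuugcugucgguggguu
let-7d-5p (Mirlet7d, chr13:48536078-48536099, - strand): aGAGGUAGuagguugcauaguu
let-7a-5p (Mirlet7a-1, chr13:48538239-48538260, - strand): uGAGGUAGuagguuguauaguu

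Mir219a-2, whose microRNA is known to drive oligodendrocyte maturation, read 7.53, 7.87, 7.95 and 7.96 at 6 months and 8.26, 8.70, 8.25, 8.48 and 8.30 at 18 months. It showed no overlap between the groups and differed by 0.57 (SE 0.12, adjusted p = 0.33). In the pair with seed AGCACCA, Mir29a differed by 0.72 (SE 0.18) and Mir29b-1 by 0.27 (SE 0.09), both at low levels, with means at 18 months of 4.76 and 3.12. Mir181b-1 read 8.03, 7.87, 7.86 and 7.87 at 6 months and 8.48, 8.48, 8.17, 8.27 and 8.14 at 18 months. It was higher on every older array, by 0.40 (SE 0.09), and its cluster partner Mir181a-1 by 0.43 (SE 0.12). Mirlet7d (0.31, SE 0.08) and Mirlet7a-1 (0.26, SE 0.09) overlapped slightly between groups.

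Whether these differences belong to YAC128 striatum alone was asked of the WT arrays of the same ages, which enter neither YAC128 group. In WT, 1814 probesets (5.22%) differed at an unadjusted p under 0.05 by limma (3.81% higher and 1.4% lower) and 0 after adjustment. Of the 1514 probesets higher in YAC128, 91.3% were also above 0 in WT, where 53% of all probesets were, and their median log2 fold change was 0.26 in YAC128 and 0.16 in WT. Of the 1009 lower in YAC128, 72.8% were below 0 in WT, against 47.0% of all, with medians of -0.23 and -0.07. Since the probesets were chosen by the YAC128 values, a smaller value in WT is built into this reading. If WT and YAC128 arrays of an age were run together, which the sources used here do not give, a shared direction and a shared run cannot be told apart.

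Gene by gene, Gfap differed by 1.13 in WT beside 1.08 in YAC128, C4b by 0.87 beside 0.82, Ccl3 by 0.95 beside 0.93 and Fos by -0.47 beside -0.45. The myelin list had 9 of 35 called higher in WT and a median of 0.21, and all 35 were above 0 there. The immediate early list had 10 of 28 called lower and a median of -0.21, with 4 of 28 above 0. For medium spiny neuron genes the WT median was -0.07, 0 of 36 were called and 4 were above 0. Other lists were nearer or further apart. In WT, activated microglia and lysosome genes had 8 of 30 called higher and a median of 0.19, the same as in YAC128. Interferon genes had 3 of 32 and a median of 0.04, beside 10 of 32 and 0.10 in YAC128. Pallidum genes had 0 of 14 and a median of -0.01, beside 4 of 14 and 0.08. Called counts in WT rest on fewer arrays than those in YAC128. The difference between genotypes in the change was tested directly: 769 probesets (2.21%) had an unadjusted p under 0.05 by limma, fewer than the 1738 that chance gives, and 0 passed adjustment. Among the genes described above it was called for Oprk1, Snord14e (-0.81), Dusp14 (-0.39) and Pcdhb4 (0.25), the 1 such member of 22 clustered protocadherins. This test reuses the YAC128 arrays by whose values many of these genes were named, so a difference is partly built in. The difference was called for 13.8% of the probesets lower in YAC128 and 4.69% of those higher, against 2.21% of all. It was called for no member of the myelin, immediate early or medium spiny neuron lists. Of the genes with the lowest p in this test, Otud1, a deubiquitinase, differed by -0.29 in YAC128 and 0.11 in WT. Cbx3, a heterochromatin protein, differed by 0.55 and -0.42 at a dim probeset with a mean of 3.26 in YAC128 at 6 months, but by 0.15 and -0.05 at its probeset of highest mean.

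**Figure D4:**
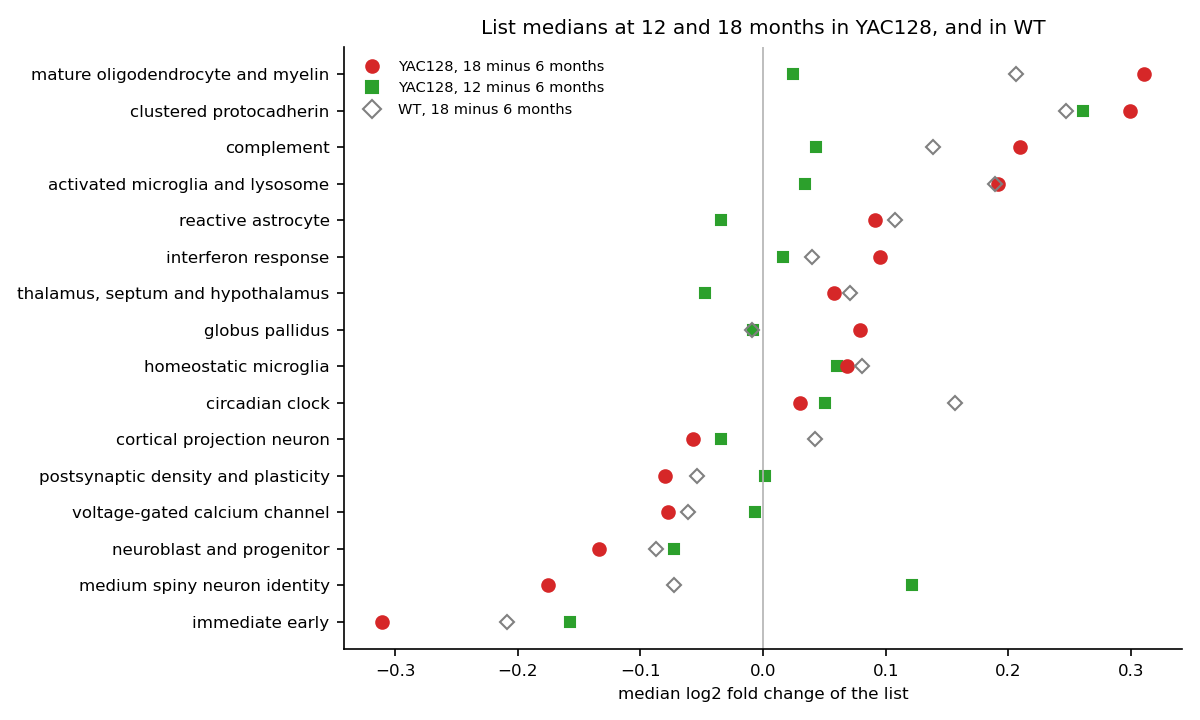
Median log2 fold change (x axis) of 16 gene lists (y axis) in YAC128 from 6 to 18 months (red circles) and from 6 to 12 months (green squares), and in WT from 6 to 18 months (grey diamonds). The protocadherin median was already 0.26 at 12 months, the myelin median was 0.02 there and 0.31 at 18 months, and the WT medians of both lists lay above 0.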

How the data were processed

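Expression was measured in total RNA from striatum on 26 Affymetrix Mouse Gene 1.0 ST arrays. The authors normalized them with RMA and deposited log2 values, which were used as they stand. The version was not given in the sources used here, and the labels and the methods describe different labelling kits. RMA quantile-normalizes the probe intensities of all arrays to 1 distribution, so an overall shift between ages cannot be judged from the values. Array medians of the deposited values still ran from 7.42 to 7.52. Centring on them moved the split of higher and lower probesets, as given above. Of 34760 probesets, 21640 had 1 gene symbol in the platform annotation, 1321 several (named nowhere) and 11799 none. Genes in lists were represented by the probeset of highest mean over all 26 arrays. Groups were compared with limma 3.58.1 in R 4.3.3 (lmFit, eBayes, Benjamini-Hochberg), without covariates, on the arrays of the 2 groups compared. The difference between genotypes used all arrays of both genotypes at 6 and 18 months. Single values of Htt, Slc17a7 and Ttr were tested by exact permutation (scipy). The scripts were tested on simulated data. The number of arrays limits the precision, and p-values measure the spread between arrays. No 2 arrays held identical values (pairwise r 0.975 to 0.995).

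Genes were named by rule: the 12 of lowest p in each direction, the 8 of largest difference without overlap, up to 4 per list, 5 in each direction for the genotype difference, and a fixed set; further members of a list or family, and the microRNA genes, were named after their values were seen. Members and lists were chosen with earlier results of these data known. Alternatives changed the scaling, filter, covariates, variance prior, weights, array set and probesets tested.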

Additional observations from a re-analysis of the deposited data

Results flagged for a closer look

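In 37 of 332 groups of 4 or 5 YAC128 arrays examined, 1 array stood far from the rest of its group by Dixon's test, and 21 of the 37 were M2 arrays. Chance gives this in about 1 of 20 independent groups. Lists and genes they hold were counted as separate groups, so the 332 are not independent and that share is no yardstick for the 37.

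The M2 array of 6 months was lowest of its group for the medium spiny neuron list (10.34, others from 10.83), the direct pathway list (8.92, others from 9.44), the indirect pathway list (10.05, others from 10.60), Drd2 (10.80), Penk (12.45), Arpp19 (11.02) and Mbp (11.93). It was highest for voltage-gated calcium channels (9.39), Arpp21 (11.68) and Btg2 (8.73). The M2 array of 18 months was lowest for the same 3 neuron lists (10.04, 8.79 and 9.74, others from 10.60, 9.37 and 10.43), for sodium channels (8.83) and for dopamine, opioid and cannabinoid genes (8.52). It was also lowest for Ryr1 (7.44), Cnr1 (8.49), Drd1 (9.34), Drd2 (10.46), Ppp1r1b (10.86) and Pde10a (11.23). Both arrays were high in cortical genes, and what part dissection had in this was not tested.

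The F1 array of 6 months was highest for C1qc (8.98), Pdgfra (8.93), Cacng3 (11.57), Cacna1e (11.09), Dlg4 (11.61), Pcdhb11 (7.53) and Mir181b-1 (8.03) and lowest for Hspa8 (12.94). The M1 array of 6 months was highest for Ctsd (10.79). At 18 months M1 was highest for lymphocyte genes (6.66), blood genes (7.51), Arc (9.28) and Nr4a1 (9.50), F2 was highest for oligodendrocyte precursors (8.76) and lowest for Btg2 (7.65), and F1 was highest for the postsynaptic list (10.20).

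The change from 6 to 18 months differed between YAC128 and WT at an unadjusted p under 0.05 by an interaction term in limma, with 0 after adjustment, for Oprk1 (-0.53), Dusp14 (-0.39), Pcdhb4 (0.25), Snord14e (-0.81) and Otud1 (-0.41). Genes were named by values of the same arrays, in part by this test, so such differences are partly built in.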

How the results depend on the processing

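The 106 called genes followed one by one kept their direction in each of 22 alternative settings that gave them a value, and 73 of them stayed called in each such setting. The exception is the removal of the dimmest probesets, where 7 of them had no value. All 106 were called on these same arrays, which the settings largely reuse, so a kept direction was largely built in. The counts of called probesets varied. Array weights gave 6022 called, 3081 higher and 2941 lower, with 16 after adjustment. One fit over all 26 arrays gave 56 after adjustment, and testing single-symbol probesets alone gave 2, with 669 lower. Over arrays left out in turn, the total ranged from 1735 to 3836, those higher from 983 to 1940, those lower from 745 to 1896 and those after adjustment from 0 to 3. Without F1 of 6 months 3836 were called (1896 lower), without M1 of 18 months 1646 were lower, and without M3 of 6 months 983 were higher. The WT count was 2996 with all arrays in 1 fit and 1155 without the dimmest 0.25 of probesets, and ranged from 1192 (without F1 of 18 months) to 2904 (without F1 of 6 months), with 2744 without M2 of 18 months. The count for the genotype difference was 1312 with sex as a covariate, 437 without the dimmest 0.25 of probesets and 697 to 1304 over arrays left out, the highest without WT M2 of 18 months.

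Pairing by the labels' sex and number was not borne out, with correlations of deviations of 0.34, 0.06, 0.30 and 0.06, and as a replicate block it gave 2931 called (1568 higher, 1363 lower).

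None of these 106 genes changed sign. With the thalamic list mean as a covariate Drd1 was 0.13, Drd2 0.16, Penk 0.010, Tac1 0.30, Ppp1r1b 0.32, Pde10a 0.036, Htt -0.0071, Slc17a7 -0.19, the medium spiny neuron median 0.10 and the indirect pathway median 0.11. Of medians nearer to 0, that of the direct pathway went from -0.03 to 0.23 and that of the thalamic list, with 6 called members, from 0.06 to -0.05. P2ry12 was -0.014 with sex and -0.023 with the block, Slc17a7 -0.38 in males, and the choroid plexus median -0.019 with weights and -0.091 without both M2 arrays. Over arrays left out, P2ry12 ranged from -0.023 to 0.068, Tac1 from -0.27 to 0.11, Ppp1r1b from -0.30 to 0.12, Htt from -0.0043 to 0.029, Bdnf from -0.16 to 0.011 and Slc17a7 from -0.41 to 1.14. The causes were not tested.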

Other observations

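Some families outside the comparisons above were measured as well. Of 91 genes of oxidative phosphorylation 4 (4.4%, against 4.36% of all probesets) were called higher and 0 lower in YAC128 striatum from 6 to 18 months by unadjusted limma p, and 78 were above 0 with a median of 0.06. Of 1015 olfactory receptor genes, whose probesets read near the bottom of the scale, 71 (7.0%) were called higher and 3 lower with a median of 0.05. In WT over the same span 140 of them were called higher and 4 lower, with a median of 0.07. In YAC128, Olfr859 was highest on all 5 arrays of 18 months (4.41 to 4.63, against 3.85 to 4.29 at 6 months). Without F1 of 6 months 36 olfactory receptor genes were higher and 12 lower, and 44 to 46 were higher without M1 of 6 months or F2 or M3 of 18 months. The count was 126 without M2 of 6 months and 117 without F1 of 18 months. In oxidative phosphorylation the count was 1 or 2 without F1, F2 or M2 of 18 months or M2 or M3 of 6 months. The direct pathway and indirect pathway lists had 0 called of 9 and 0 called of 6, the cortical list 0 of 21, the choroid plexus list 0 of 20, the metabotropic glutamate receptors 0 of 7 and the cytosolic ribosomal proteins 3 higher and 3 lower of 62, all by the same unadjusted test. The ribosomal count higher ranged from 0 without F1 of 18 months to 6 without M2 of 18 months, with 1 without F2 of 18 months or M2 of 6 months.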
